A study of Mus musculus with 6 samples.

Results

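Plasma cells of the small intestinal lamina propria were examined as 205 of 8577 kept cells in a pair of mouse single-cell RNA libraries. A cell was counted as a plasma cell when it held at least 50 unique molecular identifiers (UMIs, one per captured RNA molecule) of Jchain and at least 2 of Mzb1. Kept cells held 500 genes and 1000 UMIs or more, with no more than 10% of the UMIs from mitochondrial genes. The rule selected 96 of 5122 kept cells in the wild-type library (WT_LP) and 109 of 3455 in the knockout library (KO_LP).

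The study profiled lymphocytes from 3 tissues of C57BL/6J mice aged 8 weeks, with 1 library per genotype and tissue and 6 libraries in all. WT_LP came from wild-type mice. KO_LP came from mice with loxP-flanked alleles of Zfp683, the gene for the transcription factor Hobit, and Cre expressed from Ncr1, a gene used by natural killer (NK) cells and related innate lymphoid cells. The labels describe the lamina propria samples as type 1 innate lymphoid cells and NK cells, give no sort gate and do not say whether animals were pooled. The intestine was freed of Peyer's patches, treated with EDTA, digested with collagenase IV and put through a Percoll gradient.

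A plasma cell is the last stage of the B cell lineage and turns most of its protein synthesis over to 1 antibody. In the gut wall it makes mainly IgA, which the J chain joins into dimers that the epithelium carries into the lumen. To do so it enlarges the endoplasmic reticulum (ER), a change driven by the transcription factors Xbp1, Irf4 and Blimp-1 (Prdm1), and it depends on survival signals that reach receptors such as BCMA (Tnfrsf17). Homing to the small intestine relies on the chemokine receptors Ccr9 and Ccr10 and on the integrin of Itga4 and Itgb7.

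A plasma cell normally uses 1 heavy chain variable (V) gene and 1 light chain V gene, so the V genes that a cell transcribes narrow down its antibody. The pair alone does not name the antibody, because the joined region was not read in these counts. The largest set of plasma cells with the same pair was in KO_LP and used Ighv1-53 (chr12:115158403-115158835 on GRCm38, minus strand) with Igkv8-19 (chr6:70340876-70341453, minus strand). Near-identical V genes can share reads, so the 90 reference bases that tell each of these genes from its nearest copy are shown, read 5′ to 3′ on the coding strand from GENCODE M21 and GRCm38.p6. Capitals mark the bases that differ between the genes of each pair.
Ighv1-53: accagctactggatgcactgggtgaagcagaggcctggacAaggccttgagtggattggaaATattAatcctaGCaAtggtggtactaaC
Ighv1-72: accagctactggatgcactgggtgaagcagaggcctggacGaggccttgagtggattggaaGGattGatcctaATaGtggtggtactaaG
Igkv8-19: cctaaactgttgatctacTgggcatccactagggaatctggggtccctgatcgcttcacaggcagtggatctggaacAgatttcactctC
Igkv8-28: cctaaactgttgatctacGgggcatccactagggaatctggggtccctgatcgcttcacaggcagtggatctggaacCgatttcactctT
Over the last 240 coding bases, Ighv1-53 and Ighv1-72 (chr12:115757984-115758461) differed at 9 positions and Igkv8-19 and Igkv8-28 (chr6:70143593-70144166) at 5. The printed windows hold 8 and 3 of these.

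The ER genes carry sequences of their own, shown here for the genes that turn up in the secretory results below. The ER stress response element, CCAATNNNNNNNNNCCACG, is the site through which ATF6 and Xbp1 are known to act on ER chaperone genes. It was searched on both strands in the RefSeq promoter table of GRCm38.p6, from 250 bases before to 50 bases after each start, in which N stands for any base. Capitals mark the fixed letters of each match, read on the strand that holds it.
Calr: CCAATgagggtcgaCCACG
Canx: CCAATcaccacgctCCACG
Creld2: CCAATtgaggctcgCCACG
Derl3: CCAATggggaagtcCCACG
Dnajc3: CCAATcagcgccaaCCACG
Hsp90b1: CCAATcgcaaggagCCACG
Hsp90b1: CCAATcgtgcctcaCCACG
Hspa5: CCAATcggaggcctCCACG
Pdia6: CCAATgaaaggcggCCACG
Syvn1: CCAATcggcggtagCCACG
The stretches before the starts of Derl3 and Creld2, which were among the ER genes highest above other cells, run on the plus strand from 20 bases before the element to the base before the start. On this strand both elements are in reverse, with the fixed letters again in capitals. The Derl3 stretch is chr10:75893222-75893397 and the Creld2 stretch is chr15:88819500-88819645.
Derl3: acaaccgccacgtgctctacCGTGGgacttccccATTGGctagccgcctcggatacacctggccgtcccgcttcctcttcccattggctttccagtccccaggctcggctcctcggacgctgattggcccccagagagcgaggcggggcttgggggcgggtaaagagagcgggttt
Creld2: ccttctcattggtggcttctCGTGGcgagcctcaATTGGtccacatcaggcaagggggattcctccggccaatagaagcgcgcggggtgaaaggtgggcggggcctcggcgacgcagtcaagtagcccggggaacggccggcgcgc

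Plasma cells made up 1.87% of kept cells in WT_LP (95% Clopper-Pearson interval 1.52 to 2.28) and 3.15% in KO_LP (2.60 to 3.79). The difference was 1.28 percentage points (0.589 to 2.01). With 1 library per genotype there is no replicate check on any comparison between WT_LP and KO_LP, no p-value is given, and all intervals cover counting error only. How the animals, the captures and the genotypes contribute to such a difference cannot be told apart.

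Since Jchain and Mzb1 chose the cells, their values are a description. Jchain ran from 91 to 3584 UMIs per plasma cell in WT_LP (median 1564.5) and from 223 to 3111 in KO_LP (median 1530.0). Mzb1, an ER protein that helps IgM and IgA assembly, ran from 2 to 296 (median 36.5) and from 2 to 170 (median 32). Just outside the rule were 1 WT_LP cell with 49 Jchain and 1 Mzb1 UMI and another with 355 and 0. In KO_LP the highest excluded cell had 18 Jchain UMIs, with 21 of Mzb1. Of the other kept cells, 62.8% in WT_LP and 79.0% in KO_LP had no Jchain UMI. The rule therefore sat in a wide gap, and moving the Jchain minimum to 20 or 200 UMIs changed the WT_LP set to 96 or 94 cells and left 109 in KO_LP. A further 7 barcodes in WT_LP and 3 in KO_LP met both minimums but failed the cell filter.

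**Figure D1:**
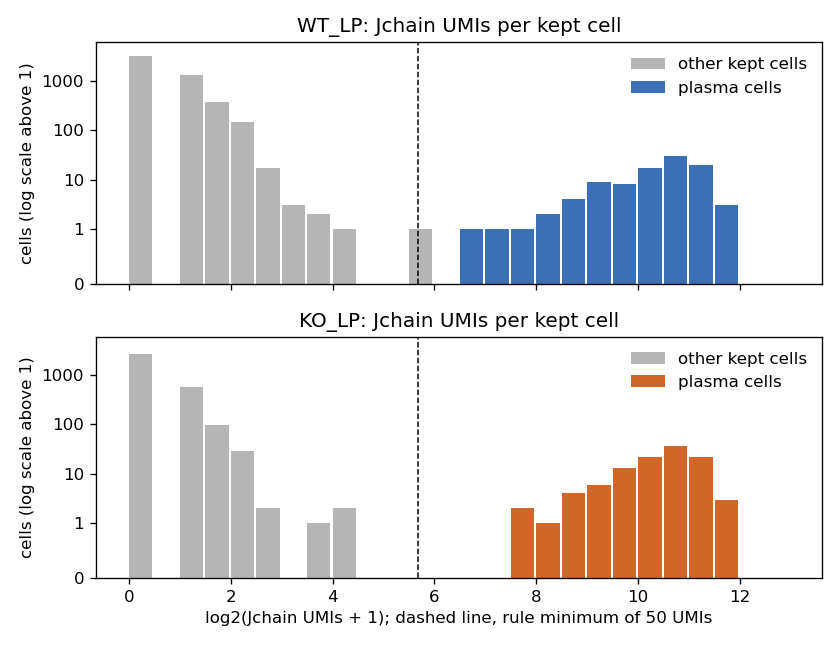
Number of kept cells (y axis, log scale above 1) by Jchain content (x axis, log2 of Jchain UMIs plus 1) in WT_LP (top) and KO_LP (bottom), with plasma cells in colour and other kept cells in grey. Plasma and other cells are separated by the dashed rule minimum of 50 UMIs, apart from the WT_LP cell at 49 UMIs in the bin that spans the line and the WT_LP cell at 355 UMIs without enough Mzb1.

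These cells were deep. The median plasma cell held 24045 UMIs in WT_LP (2354 to 45820) and 23045 in KO_LP (3831 to 61745), against 4912.5 and 5339.5 in the other kept cells. Plasma cells thus held 7.85% of all UMIs of kept cells in WT_LP and 11.5% in KO_LP. The libraries held 29622652 and 23098308 UMIs over 5518 and 3747 barcodes. WT_LP and KO_LP shared 5 barcodes, and no barcode was shared between their plasma cells. Scrublet, a doublet caller, marked 2 WT_LP and 4 KO_LP cells, none of them a plasma cell. A caller that marks so few (0.0390% and 0.116%) has not worked, and no cell was removed on its calls.

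The label was checked against markers the rule did not use. Levels of genes outside immunoglobulin are given as CPM, the counts per 1000000 UMIs that fall outside 393 immunoglobulin genes (Jchain included). Derl3, which moves misfolded proteins out of the ER, reached 575 CPM in the plasma cells of WT_LP and 549.7 CPM in those of KO_LP, against 0.822 and 1.01 CPM in the other kept cells. Tnfrsf17 (BCMA) stood at 452 and 511 CPM, with 9 UMIs in all other kept cells of WT_LP and 1 in those of KO_LP. Ccr10 stood at 491 and 586 CPM, against 0.485 and 0.252 CPM. At least 1 UMI of Tnfrsf17 was seen in 88 of 96 and 101 of 109 plasma cells, and of Ccr10 in 87 and 99. The markers therefore fit the name in both libraries.

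Every cell that met the rule in both libraries was an IgA cell. The rule required Jchain, whose product joins IgA, so any plasma cells with little Jchain were left out before the isotype was read. The IgA share is therefore that of Jchain-rich cells only. Igha, the IgA heavy chain constant gene (chr12:113254830-113260236, minus strand), gave 317512 UMIs in WT_LP and 372260 in KO_LP, which was 99.7% and 99.8% of all heavy chain constant UMIs. A cell was assigned an isotype when 1 constant gene had at least 10 UMIs and at least 80% of its heavy chain constant UMIs. This gave 96 of 96 IgA cells in WT_LP (lower bound 96.2%) and 109 of 109 in KO_LP (lower bound 96.7%). At this number of cells a second isotype could still make up as much as 3.77% and 3.33% of such cells. A single cell held 143 to 7825 Igha UMIs in WT_LP and 495 to 7181 in KO_LP.

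The other constant genes were present in traces and in few cells. Ighg2b (IgG2b) gave 578 UMIs in 18 WT_LP cells and 460 in 18 KO_LP cells. In 1 WT_LP cell Ighg2b reached 232 UMIs, or 18.5% of that cell's heavy chain constant UMIs. Ighm (IgM) gave 292 UMIs in 15 cells and 93 in 8, Ighg1 gave 106 in 6 and 25 in 2, and Ighg2c gave 79 in 4 and 38 in 2. Ighg3 gave 41 UMIs in a single WT_LP cell, and Ighe (IgE) gave 28 in a single KO_LP cell. Ighd (IgD), a mark of naive B cells, was at 0 in both, which allows up to 3.21 CPM in WT_LP and 2.86 CPM in KO_LP. The traces were thus concentrated in a minority of cells in which IgA was still the main isotype.

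Most plasma cells used the kappa light chain, encoded by Igkc (chr6:70726435-70726966, plus strand). By the same 80% rule, 88 of 96 WT_LP cells (91.7%) and 102 of 109 KO_LP cells (93.6%) were kappa. Lambda cells numbered 6 in WT_LP (6.25%, 2.33 to 13.1) and 7 in KO_LP (6.42%, 2.62 to 12.8). The lambda shares differed by far less than the width of either interval. Iglc1 (chr16:19061618-19062071, minus strand) led in 5 of the WT_LP lambda cells and 6 of the KO_LP ones, Iglc2 in 1 WT_LP cell and Iglc3 in 1 KO_LP cell. The leading gene held 98.6% to 99.8% of the lambda constant UMIs of each of these cells. The other 2 WT_LP cells were mixed, with lambda at 71.9% and 74.3% of light chain UMIs.

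All 7 lambda cells of KO_LP were among the 12 plasma cells in the top 5% of Scrublet scores of that library, while no WT_LP plasma cell was in the top 5% of its own. Without the top 5%, no lambda cell was left among 97 KO_LP plasma cells.

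Immunoglobulin took up most of a plasma cell's RNA. Its median share of UMIs per cell was 60.0% in WT_LP (quartiles 53.7 and 66.1, range 27.6 to 77.8) and 65.6% in KO_LP (quartiles 52.5 and 70.1, range 9.56 to 84.2). The quartile ranges of the libraries overlapped almost wholly. Lambda cells had median shares of 72.3% and 68.0%, against 59.9% and 65.3% in kappa cells. Cells held more light than heavy chain RNA, with a median of 2.72 light per heavy chain UMI in WT_LP (0.754 to 10.4) and 2.57 in KO_LP (1.08 to 6.07).

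Immunoglobulin UMIs made up 0.130% of the UMIs of the other kept cells in WT_LP and 0.0698% in KO_LP. These cells held 2.01 and 1.99 Igkc UMIs per Igha UMI, near the 2.33 and 2.31 of plasma cells, and 36.1 and 30.9 Jchain UMIs per 100 Igha UMIs, against 46.3 and 45.8. Ighm went the other way, with 2819 and 2696 UMIs in the other cells. The V genes of the other cells resembled those of the plasma cells of their own library most. Across 185 heavy chain V genes, the shares in the other cells of KO_LP correlated with those in KO_LP plasma cells (r = 0.72) more than with those in WT_LP plasma cells (r = 0.34), over 58 UMIs. For the other cells of WT_LP the values were 0.43 with their own library and 0.17 with KO_LP, over 90 UMIs. Genes within a library share its cells, so these correlations are descriptions. Plasma cells held 97.9% of the Jchain UMIs of kept cells in WT_LP and 99.5% in KO_LP, and 97.4% and 99.2% of the Igha UMIs.

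A heavy and a light chain V gene were both assigned, each with at least 5 UMIs and at least 80% of the cell's V UMIs of that chain, in 83 of 96 WT_LP and 99 of 109 KO_LP plasma cells. WT_LP held 62 different pairs, of which 47 were seen in 1 cell. KO_LP held 57 pairs, of which 45 were seen in 1 cell. Both libraries were thus diverse, but KO_LP had larger groups. Pairs seen in at least 3 cells covered 14 cells in WT_LP (16.9%, 4 pairs) and 46 cells in KO_LP (46.5%, 8 pairs).

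The largest group was Ighv1-53 with Igkv8-19, whose sequences are given above, in 14 KO_LP cells. That was 14.1% of the KO_LP cells with a pair (7.95 to 22.6). No WT_LP cell had this pair, and for 0 of 83 cells the upper Clopper-Pearson bound is 4.35% (3.61% by a floor of 3 counts). Ighv1-53 itself was seen in 2 WT_LP cells, with Igkv1-110 and with Igkv4-59. In the KO_LP group the heavy chain V gene had a median of 44.5 UMIs per cell and the light chain V gene 149.5. Cells that share a V pair may or may not descend from 1 B cell, because the joined region that tells clones apart was not read in these counts.

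The next KO_LP pairs were Ighv2-9 with Igkv2-109 in 7 cells, Ighv1-20 with Igkv1-135 in 6, Ighv5-17 with Igkv6-23 in 5, and Ighv8-12 with Igkv13-84 in 4. In WT_LP the largest groups had 4 cells, which was 4.82% (1.33 to 11.9). They were Ighv9-3 with Igkv4-59 and Ighv1-26 with Iglv1. The Ighv1-26 and Iglv1 pair also had 4 cells in KO_LP, and it was 1 of 6 pairs seen in both libraries. The heavy chain V genes seen in most WT_LP cells were Ighv1-26 in 8, Ighv14-2 in 7, Ighv1-76 in 6, Ighv9-3 in 5, and Ighv1-72 and Ighv1-80 in 4 each. Some V genes have close copies: Ighv1-20 differed from Ighv1-37 at 3 of 240 bases, so its call is less certain than that of Ighv2-9, which was 95.8% identical to Ighv2-6-8.

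**Figure D2:**
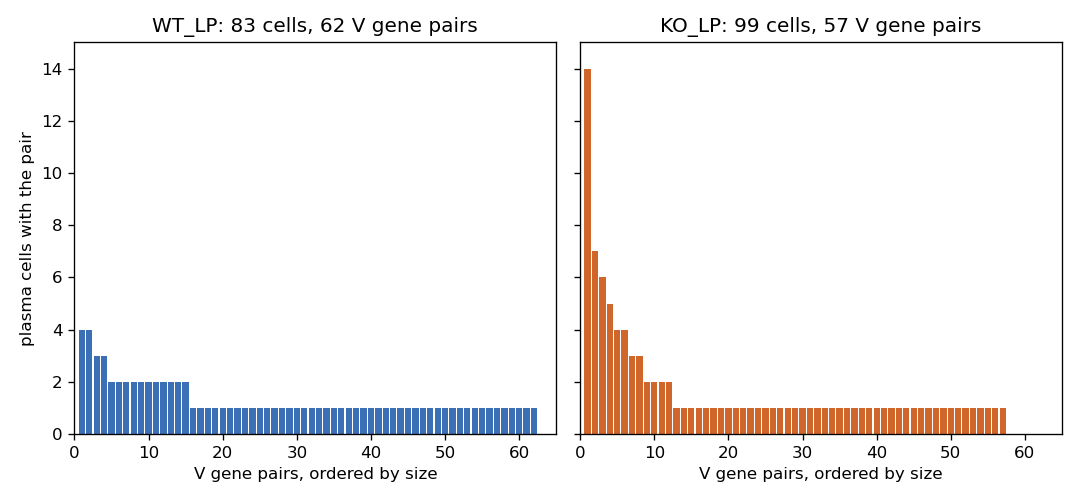
Number of plasma cells (y axis) with each pair of heavy and light chain V genes (x axis, pairs ordered by size) in WT_LP (left, 83 cells) and KO_LP (right, 99 cells). The WT_LP bars reach 4 cells, while the first KO_LP bar, Ighv1-53 with Igkv8-19, reaches 14.

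The 14 cells of this pair were IgA cells like the rest. Their median immunoglobulin share was 71.2% (lowest and highest cell 64.6 and 76.0), against 63.8% in the other KO_LP plasma cells (quartiles 50.9 and 69.3). These are unlike measures of spread. They held a median of 1988.5 Jchain UMIs, against 1427.0 in the others, and 2.35 light per heavy chain UMI against 2.62. In WT_LP the 4 cells of Ighv9-3 with Igkv4-59 had a lower median light to heavy ratio of 1.45 (lowest and highest cell 1.07 and 1.56), against 2.74 in the other cells. The other WT_LP group of 4 cells, Ighv1-26 with Iglv1, went the other way. Its median ratio was 4.29 (lowest and highest cell 2.58 and 5.28), against 2.71 in the other cells. Its median immunoglobulin share was 73.4%, against 59.9%. These groups were the largest of each library, so the differences are descriptions.

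**Figure D3:**
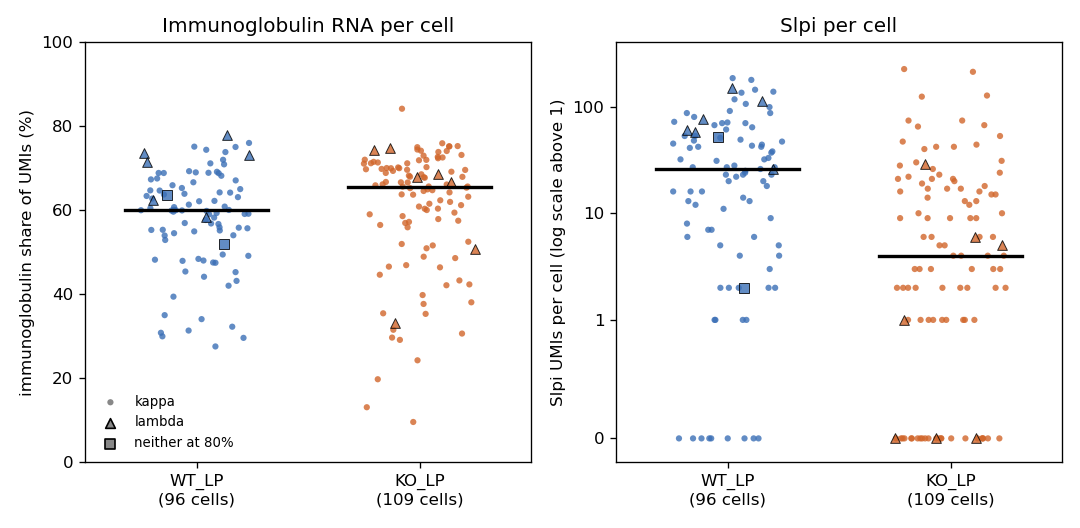
Immunoglobulin share of UMIs (left, y axis in percent) and Slpi UMIs (right, y axis on a log scale above 1) in each plasma cell of WT_LP (96 cells) and KO_LP (109 cells). Circles are kappa cells, triangles lambda cells and squares the 2 mixed cells, and black bars are medians, which are 60.0% and 65.6% on the left and 26 and 4 UMIs on the right.

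Against the other kept cells of the same library, 1407 of 12724 genes (11.1%) were at least 2-fold higher in plasma cells in both WT_LP and KO_LP, and 2204 (17.3%) were at least 2-fold lower. The median log2 ratio over all these genes was -0.24 in WT_LP and -0.18 in KO_LP. Scaling with TMM factors moved every ratio up by 0.18 and 0.15, and with median-of-ratios factors by 0.22 and 0.16. As the cells were chosen by plasma cell genes, the contrast describes what they are and tests nothing.

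Most genes of the ER machinery were higher in plasma cells, and they are given in the order in which a new protein meets it. For each list, the share to compare is the 11.1% of all genes that were at least 2-fold higher. Of 23 measured genes of translocation and signal peptide removal, 17 were at least 2-fold higher in both libraries, with median log2 ratios of 2.18 and 2.25. Sec11a, a signal peptidase subunit, was the 1 member below the other cells in both (-0.21 and -0.07). Ssr4, a subunit of the translocon-associated complex, stood at 4131 and 4251 CPM in plasma cells and at 237 and 212 CPM in the others. The channel subunit Sec61b stood at 2693 and 3142 CPM, against 406 and 400.3 CPM. The signal peptidase subunit Sec11c stood at 3208 and 3152 CPM, against 425 and 347 CPM. These genes differed little between the libraries: the list median of log2 KO_LP over WT_LP was 0.13, and none of 22 genes passed 2-fold.

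Of 30 chaperones and folding enzymes, 24 were at least 2-fold higher in both libraries, with medians of 2.57 and 2.59. Ero1l (-0.70 and -0.37) and Cnpy3 (-1.74 and -2.26, from 7 and 5 UMIs) were lower in both. Hsp90b1 (GRP94), the ER form of Hsp90, stood at 6059 and 6358 CPM, against 412 and 415 CPM in the others. Txndc5, a disulfide isomerase, stood at 2827 and 3048 CPM, against 17.1 and 14.9 CPM. Hspa5 (BiP), which holds unassembled heavy chains, stood at 2025 and 2010.2 CPM, only 1.22 and 0.93 on the log2 scale above the others, which themselves held 870.5 and 1055 CPM. Fkbp11, a folding isomerase, was nearly absent elsewhere, at 304 and 414 CPM against 0.448 and 0.403 CPM. Creld2, a stress-induced disulfide isomerase, stood at 535 and 506 CPM against 27.0 and 26.2 CPM.

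The enzymes that add N-linked sugars, which IgA carries, were higher in all 18 cases, 16 of them by at least 2-fold (medians 1.67 and 1.87). Krtcap2, a subunit of the oligosaccharyltransferase, stood at 1599 and 1765 CPM, against 403 and 362 CPM. St6gal1, which caps sugar chains with sialic acid in the Golgi, stood at 255 and 371 CPM, against 5.12 and 3.68 CPM. St6gal1 was 0.54 higher in KO_LP on the log2 scale (0.31 to 0.78), seen in 76 of 96 and 94 of 109 cells.

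All 15 genes of ER quality control were higher too, 12 by at least 2-fold (medians 2.54 and 2.39). Edem1 and Edem2, which trim the sugars of misfolded proteins, stood at 1030.0 and 1120.4 CPM and at 837 and 781 CPM, against 54.1 and 61.7 CPM and 20.3 and 19.0 CPM. Herpud1, part of the same disposal complex, stood at 955 and 729 CPM (-0.39, -0.53 to -0.25). Of 27 genes of ER to Golgi transport all were higher and 17 passed 2-fold (medians 1.33 and 1.51). Lman1, a cargo receptor, stood at 716 and 702 CPM, against 45.9 and 38.9 CPM.

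The regulators of the unfolded protein response did not move as a block. Of 14 genes 6 were at least 2-fold higher and 1, Ern1, at least 2-fold lower, with medians of 0.88 and 0.06. The shares of all genes were 11.1% higher and 17.3% lower. Xbp1 stood at 3102 and 3715 CPM, against 75.0 and 69.9 CPM, and every plasma cell held at least 1 UMI of it. Atf6, another ER stress sensor, stood at 183 and 182 CPM, against 52.5 and 43.6 CPM. Ern1, the kinase that splices Xbp1 RNA, was lower than in the other cells, at 29.9 and 47.6 CPM against 107 and 119 CPM. Ppp1r15a, which reverses the translation block of the stress response, stood at 404 and 272 CPM, against 541 and 522 CPM, and Atf4 at 366 and 358 CPM, against 280.1 and 323 CPM. On the log2 scale Atf4 was thus 0.39 and 0.15 above the other cells, while the values were -0.42 and -0.94 for Ppp1r15a and -1.81 and -1.30 for Ern1.

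**Figure D4:**
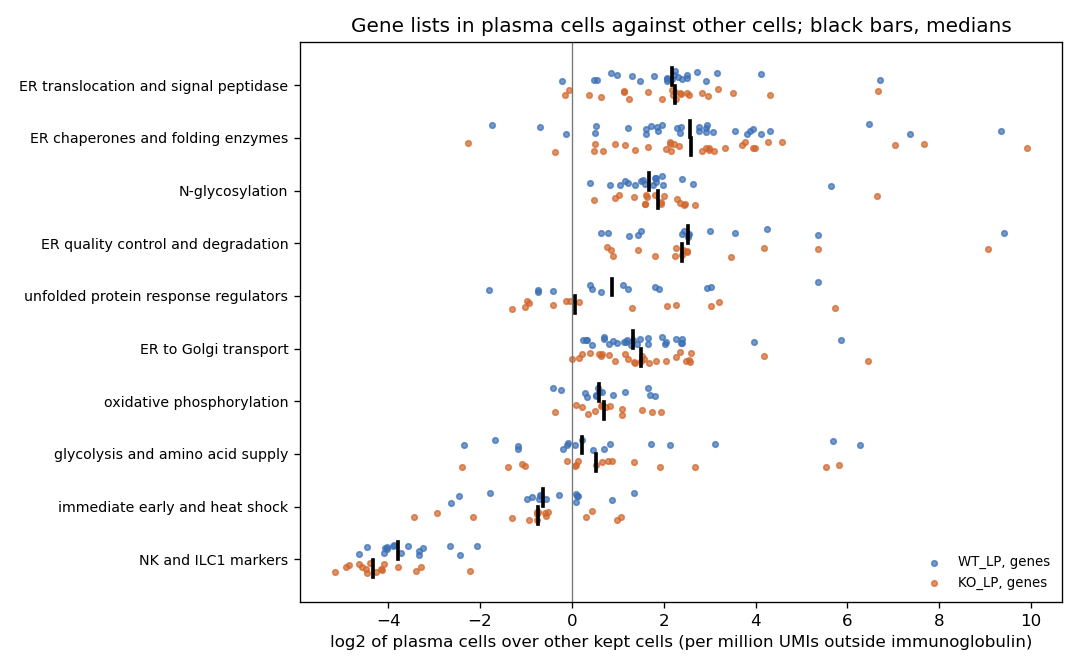
Log2 ratio of plasma cells over other kept cells (x axis, from CPM outside immunoglobulin) for the genes of 10 lists (y axis), with WT_LP in blue, KO_LP in orange and black bars for list medians. The translocation, chaperone and quality control medians lie between 2.18 and 2.59, and the NK and innate lymphoid marker medians at -3.79 and -4.32.

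The ER stress response element shown above was found in 7 of 25 chaperone promoters in the table (28.0%, 12.1 to 49.4), namely those of Calr, Canx, Creld2, Dnajc3, Hsp90b1, Hspa5 and Pdia6. It was found in 2 of 14 quality control promoters, Derl3 and Syvn1. It was in 35 of all 27025 promoters (0.130%), and in none of the 18 translocation, 14 N-glycosylation and 23 ER to Golgi promoters. The genes with the element did not share a level: Derl3 was 9.42 and 9.06 above the other cells on the log2 scale, Creld2 4.31 and 4.27, Hsp90b1 3.88 and 3.94, and Canx only 0.51 and 0.68. The shorter unfolded protein response element, TGACGTGG, was in 4 of the 23 ER to Golgi promoters (17.4%; Copb1, Copb2, Kdelr3 and Sec24d), in 2 of the 14 quality control promoters (14.3%; Ube2j1 and Vcp), in 1 of the 25 chaperone promoters (Txndc11) and in 164 of all promoters (0.607%). A match is a run of letters and was not shown to be a bound site.

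Of 12 plasma cell transcription factors, 6 were at least 2-fold higher than in other cells in both libraries, beside 11.1% of all genes. At least 2-fold lower was 1, beside 17.3% of all genes. Ikzf1, Ikzf3 and Zfp683 were not higher in either library. Irf4, which starts and maintains the plasma cell programme, stood at 182 and 161 CPM, against 6.12 and 8.82 CPM. Pou2af1, the B cell octamer coactivator, stood at 385 and 341 CPM, against 0.971 and 2.37 CPM. Ell2, an elongation factor that favours the secreted form of heavy chain RNA, stood at 258 and 320.1 CPM, against 27.2 and 36.1 CPM. Pax5, which holds B cells in their earlier identity, was at 0 in both libraries. Ms4a1, which encodes the B cell protein CD20, gave 3 and 2 UMIs in all plasma cells together.

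Prdm1, which encodes Blimp-1 and is related to Zfp683, was lower in KO_LP plasma cells. It gave 209 UMIs (224 CPM) in WT_LP and 142 UMIs (135 CPM) in KO_LP, a log2 ratio of -0.72 (-1.04 to -0.41), with UMIs in 70 of 96 and 63 of 109 cells. In the other kept cells the same ratio was 0.45. A single cell held at most 9 UMIs in WT_LP and 8 in KO_LP, with quartiles of 0 and 3.25 in WT_LP and of 0 and 2 in KO_LP, so the libraries overlapped. Zfp683 itself had no UMI in any plasma cell, which allows up to 3.21 and 2.86 CPM. It gave 80 UMIs (2.99 CPM) in the other kept cells of WT_LP and 78 (3.93 CPM) in those of KO_LP. Counts taken at the end of the RNA do not check a deletion elsewhere in the gene, and the labels do not give the deleted part. Ncr1, whose promoter drives the Cre, gave 19 and 13 UMIs in plasma cells, at 20.3 and 12.4 CPM against 519 and 281 CPM in the other cells.

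Of 10 measured survival receptors, 4 were at least 2-fold lower than in other cells in both libraries, beside 17.3% of all genes. At least 2-fold higher were 5, beside 11.1% of all genes. Besides Tnfrsf17, these included Tnfrsf13b (TACI), at 297 and 314 CPM against 3.36 and 3.38 CPM, and Tnfrsf13c (BAFF receptor), lower in level at 61.0 and 60.0 CPM against 1.98 and 3.68 CPM. Cd28, a costimulatory receptor that long-lived plasma cells use, stood at 184 and 168 CPM, against 85.5 and 109 CPM. The 4 lower genes were the common gamma chain Il2rg, at 168 and 172 CPM against 420.1 and 393 CPM, and the cytokine receptor genes Il7r, Il21r and Il10ra. Il7r stood at 48.1 and 42.9 CPM, against 696 and 557 CPM, and Il10ra gave 0 and 2 UMIs.

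Because plasma cells are deeper, shares of cells with a UMI were also compared after each cell was thinned to 2000 UMIs outside immunoglobulin, which left out 2 and 6 plasma cells and 173 and 75 other cells. The median cell before thinning held 8799 and 8556 such UMIs among plasma cells and 4909 and 5335 among the others. Tnfrsf17 was then seen in 50% of WT_LP plasma cells (39.5 to 60.5) and 67.0% of KO_LP plasma cells (57.0 to 75.9), against 0.0618% and 0.0306% of the other cells. Before thinning the plasma cell shares were 91.7% and 92.7%. The intervals of the libraries overlapped. Sdc1 (CD138, the classical plasma cell surface proteoglycan) was seen in 57.4% and 71.8% after thinning, against 2.95% and 1.28% of the others.

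Ccr10 was the only homing receptor of 16 that was at least 2-fold higher in both libraries, beside 11.1% of all genes. At least 2-fold lower were 8, beside 17.3% of all genes. Ccr10 was seen in 60.6% and 67.0% of thinned plasma cells, against 0.0824% of other WT_LP cells. Its level was 0.25 higher in KO_LP on the log2 scale (0.08 to 0.43). Ccr9, the small intestinal homing receptor that T cells and innate cells of the gut also use, stood at 178 and 231 CPM, against 134 and 136 CPM. It was seen in 22.3% and 27.2% of thinned plasma cells, and in 17.9% and 17.7% of the others. The intervals of the plasma cell shares, 14.4 to 32.1 and 18.9 to 36.8, cover those of the other cells for WT_LP but not for KO_LP. At full depth 55 WT_LP and 70 KO_LP plasma cells held both receptors, 32 and 29 only Ccr10, 3 and 6 only Ccr9, and 6 and 4 neither. Since a cell without a UMI may still hold the RNA, these classes depend on depth.

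Other homing genes were at low levels. Cxcr4, which retains plasma cells in bone marrow, stood at 29.9 and 26.7 CPM, against 107 and 161 CPM. Gpr183 stood at 92.0 and 58.1 CPM, against 438 and 324 CPM, and Cxcr6 at 19.3 and 12.4 CPM, against 323 and 220.0 CPM. Both chains of the gut-homing integrin were present: Itga4 at 261 and 277 CPM against 118 and 169 CPM, and Itgb7 at 203 and 281 CPM against 202 and 186 CPM. Itgb7 was 0.47 higher in KO_LP plasma cells on the log2 scale (0.20 to 0.74), and UMIs were seen in 63 of 96 and 89 of 109 cells.

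Of 25 plasma cell surface proteins, 14 were at least 2-fold higher in both libraries and 3 (Cd38, Lag3 and Ptprc) at least 2-fold lower, with medians of 1.80 and 1.95. The shares of all genes were 11.1% higher and 17.3% lower. Bst2 (tetherin) stood at 1401 and 1187 CPM, against 91.3 and 100.5 CPM. Ly6d stood at 1724 and 1368 CPM, against 7.21 and 7.11 CPM, and Ly6c2 at 796 and 758 CPM, against 48.0 and 47.8 CPM. Cd81, a tetraspanin, stood at 413 and 271 CPM, a log2 ratio of -0.61 (-0.84 to -0.38). The B cell receptor partners Cd79a and Cd79b stayed on, at 1175 and 912 CPM and at 379 and 358 CPM, against 12.7 and 15.0 CPM and 18.9 and 18.6 CPM. Ptprc (CD45) was lower than in the other cells, at 220.3 and 219 CPM against 947 and 1104 CPM.

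Of 9 MHC class II genes, 1 was at least 2-fold higher and 1 at least 2-fold lower in both libraries. Of all genes, 11.1% and 17.3% were. The list medians were 0.62 and 0.32 on the log2 scale. The higher gene was Cd74, the invariant chain, at 3764 and 2850 CPM against 354 and 287 CPM. H2-Ab1 stood at 294 and 344 CPM, against 161 and 130.0 CPM, and H2-Aa at 120 and 61.9 CPM, against 156 and 136 CPM. After thinning, H2-Ab1 was seen in 41.5% and 44.7% of plasma cells, against 6.08% and 5.90% of the others. H2-Eb1 was seen in 33.0% and 23.3%, against 4.06% and 4.22%, and H2-Aa in 9.57% and 5.83%, against 4.47% and 4.62%. H2-Oa was seen in no thinned plasma cell, against 1.59% and 1.77% of the others.

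**Figure D5:**
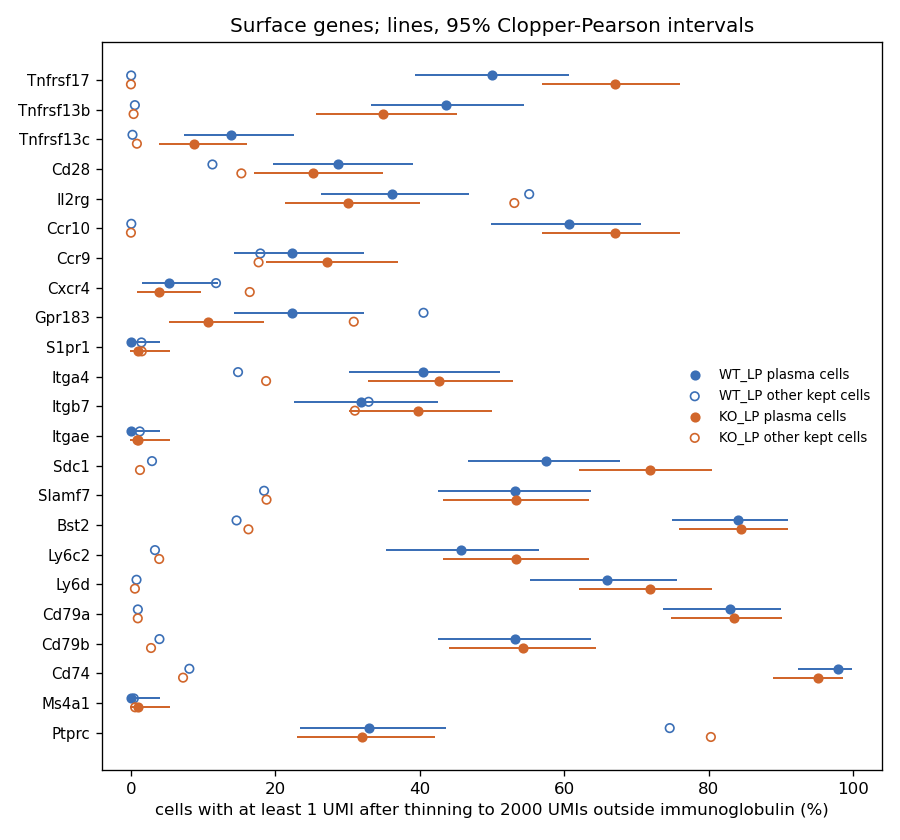
Share of cells with at least 1 UMI (x axis, percent) of 23 surface genes (y axis) after thinning each cell to 2000 UMIs outside immunoglobulin. Filled points are plasma cells with 95% Clopper-Pearson intervals, open points other kept cells, blue WT_LP and orange KO_LP. Tnfrsf17, Ccr10, Sdc1 and Cd79a separate the cell groups, whereas the Ccr9 and Itgb7 points of plasma and other cells lie close together.

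The genes outside immunoglobulin with the largest ratios over other cells included proteins other than secretory ones. Prg2, a granule protein known from eosinophils, stood at 308 and 162 CPM, with 9 and 2 UMIs in all other cells, so that the KO_LP log2 ratio of 10.33 has a counting interval from 8.78 to 13.71. Cacna1s, a muscle calcium channel subunit, stood at 335 and 259 CPM, against 0.485 and 0.454 CPM, and Ryr1, the muscle calcium release channel, at 123 and 139 CPM, against 0.672 and 0.706 CPM. Eaf2, a partner of the elongation factor Ell2, stood at 584 and 537 CPM, against 2.32 and 2.42 CPM. Gm30211 stood at 276 and 355 CPM, but it spans chr6:70719074-70740554, which contains Igkc, so its counts are uncertain.

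Between the libraries, 151 of 5823 genes with at least 30 UMIs (2.59%) were at least 2-fold higher in KO_LP plasma cells and 90 (1.55%) at least 2-fold lower, with a median log2 ratio of 0.01 over all of them. The excess of higher genes depended on the cells: the counts were 140 higher and 134 lower with each cell weighted equally, 122 and 117 without the top 5% of Scrublet scores, and 77 and 86 without the cycling cells described below. In 11 of the 151 and 7 of the 90 genes, over 50% of the UMIs in the higher library came from 1 cell. Of all 5823 tested genes, 21 had over 50% of their KO_LP UMIs in 1 cell and 26 had over 50% of their WT_LP UMIs in 1 cell. In 39 of the 151 genes the KO_LP cell with most UMIs of the gene was the cell with most cell cycle UMIs. No count over all tested genes is given for this. The secretory lists had medians close to 0: 0.13 for translocation, -0.01 for chaperones, 0.06 for N-glycosylation, -0.07 for quality control and 0.02 for ER to Golgi transport. Of the 112 measured genes of these 5 lists, Alg2, an enzyme of sugar chain assembly, was the 1 that passed 2-fold, with 12 and 31 UMIs (1.17, 0.20 to 2.30).

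Slpi, a secreted inhibitor of neutrophil elastase that protects mucosal surfaces, was among the 10 genes named as lower in KO_LP. It gave 3743 UMIs (4003 CPM) in WT_LP and 1906 UMIs (1816 CPM) in KO_LP, a log2 ratio of -1.14 (-1.22 to -1.06). Per cell it ran from 0 to 185 UMIs in WT_LP (median 26) and from 0 to 225 in KO_LP (median 4). The libraries overlapped over nearly the whole range. UMIs were seen in 87 of 96 and 83 of 109 cells, and after thinning in 83.0% and 61.2%. In KO_LP the cells of the Ighv1-53 pair had a median of 4.5 UMIs and the others 4. Other KO_LP pairs differed more, in both directions. The median was 97 against 4 for Ighv1-20 with Igkv1-135, and 40 against 4 for Ighv5-17 with Igkv6-23. For Ighv2-9 with Igkv2-109 it was 1 against 5. In WT_LP it was 87 against 24.5 for Ighv1-26 with Iglv1, and 4 against 27 for Ighv14-2 with Igkv9-124. The few Slpi UMIs of other kept cells differed the same way, at 2.91 and 1.16 CPM (-1.31).

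Other genes lower in KO_LP plasma cells by the rule differed in how many cells held them. Basp1, a membrane-associated signalling protein, stood at 461 and 211 CPM (-1.12, -1.36 to -0.89), seen in 77 of 96 and 64 of 109 cells. Vim, the intermediate filament vimentin, stood at 415 and 166 CPM (-1.32, -1.59 to -1.06), seen in 55 and 40 cells. In the other kept cells the ratio was -0.72 for Basp1 and -0.27 for Vim. Prg2 was lower by 0.93 on the log2 scale (-1.21 to -0.65), and here too the other cells, with 9 and 2 UMIs, differed the same way. Atf3, a stress-induced transcription factor, gave 88 and 18 UMIs (-2.43, -3.28 to -1.71) in 20 and 11 cells. Hilpda, a lipid droplet protein, gave 64 and 20 UMIs in 23 and 17 cells, and 32 of the 64 were in 1 WT_LP cell. Without the top cell of each library its log2 ratio was -1.05 instead of -1.82.

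Some large differences came from few cells. Csn3, kappa casein, gave 102 UMIs in 3 WT_LP cells and none in KO_LP, at least 38.2-fold lower when the KO_LP count is set to a floor of 3 counts. Cxcl2, a neutrophil chemokine, gave 105 UMIs in 4 WT_LP cells and 3 in 2 KO_LP cells (-5.08, -7.60 to -3.71). Il17a gave 139 UMIs in a single KO_LP cell and none in WT_LP (at least 41.3-fold higher), and Cxcl3 54 UMIs in a single KO_LP cell and none in WT_LP (at least 16.0-fold higher). Of the 90 Ccdc163 UMIs in KO_LP, 81 were in 1 cell, and without the top cell of each library its log2 ratio was 0.92 instead of 3.87.

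Cell cycle genes were higher in KO_LP plasma cells: all 17 genes of the list were higher in KO_LP, 11 by at least 2-fold, with a median of 1.65. Of all genes with at least 10 UMIs, the minimum for list genes, 5.36% were at least 2-fold higher in KO_LP. Top2a, the topoisomerase that untangles replicated DNA, gave 15 UMIs in WT_LP and 173 in KO_LP, Pclaf, a partner of the replication clamp, 4 and 147, and Mki67, the marker of cycling cells, 51 and 242. Mki67 was seen in 17 of 96 and 24 of 109 plasma cells, and 55.4% of its KO_LP UMIs were in 1 cell. The list gave 1090 UMIs in WT_LP, with 149 in the highest cell, and 2600 in KO_LP, with 555 and 444 in the highest 2 cells. Plasma cells with at least 50 such UMIs numbered 2 in WT_LP and 6 in KO_LP. Without the cells that held 10 or more UMIs of Mki67, Top2a, Pclaf and Ccna2 together, which left 94 and 103 cells, the list median was -0.012. This alternative was added after the data were seen. Its 4 genes belong to the list, so a fall of the median follows from how the 2 WT_LP and 6 KO_LP cells were picked and is no separate result.

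Marker RNA of other lymphocytes was detected in both sets of plasma cells, at a higher level in WT_LP. The 16 NK and type 1 innate lymphoid markers summed to 1213 CPM in WT_LP plasma cells and 683 CPM in KO_LP, against 12279 and 12620 CPM in the other cells. None of the 16 genes was at 0, the median cell held 3 and 2 such UMIs, and the highest held 214 and 135. The 11 T cell markers summed to 390.4 and 159 CPM, against 1987 and 2073 CPM, with Cd8a and Cd8b1 at 0 in KO_LP. Leaving out Tmem176a and Tmem176b, lymphoid markers gave 1548 UMIs in WT_LP and 1074 in KO_LP plasma cells, of which 77.6% and 78.8% were in 15 and 10 cells with at least 20. Tmem176a and Tmem176b, listed as markers of group 3 innate lymphoid cells, were at higher levels in plasma cells than in the other cells, Tmem176a at 1411 and 899 CPM against 603 and 368 CPM. The 9 B cell markers summed to 36.4 and 43.8 CPM, against 25.5 and 39.1 CPM in the other cells. Pax5, Ighd, Fcer2a and Cd22 were at 0 in the plasma cells of both libraries. Ebf1 gave 26 of the 34 UMIs in WT_LP and 39 of the 46 in KO_LP. After thinning it was seen in 5.32% and 5.83% of plasma cells, against 0.804% and 0.917% of the others. Of 14 epithelial markers 11 were at 0 in WT_LP and 10 in KO_LP, and of 9 stromal and endothelial markers 6 were at 0 in each.

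Some lymphoid marker and cytokine genes were lower in KO_LP than in WT_LP plasma cells. Of 8 measured T cell markers 5 were at least 2-fold lower in KO_LP (median -1.20), of 10 cytokine and mediator genes 7 (median -1.20), and of 14 NK and type 1 innate lymphoid markers 3 (median -0.66). Of all genes with at least 10 UMIs, 4.13% were at least 2-fold lower. Among them Trbc1 gave 79 and 31 UMIs, Trbc2 80 and 29, Gzmb 42 and 8, and Xcl1 219 and 117. Without the top cell of each library the log2 ratio of Xcl1 was 0.17 instead of -1.07. The 2 Trbc genes are near-identical, so their split is uncertain. The part of lymphoid RNA in the other differences between the libraries was not tested as a cause. An alternative without the plasma cells that held at least 3 lymphoid marker UMIs left 26 WT_LP and 62 KO_LP cells. It was also added after the data were seen. The measured values were -1.51 for Slpi, -1.91 for Vim, -0.82 for Prdm1 and -0.63 for Prg2. Of the gene and list values compared under it, 94 were labelled as moved, 1 as reversed and 139 as the same.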

How the data were processed

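Droplet single-cell RNA libraries (10x Genomics 3′ kit, version 3.1 chemistry, per the labels' protocols) were analysed for the lamina propria of both genotypes; of the other 4 libraries only the barcodes were counted. The values are raw UMI counts per gene and barcode in matrices deposited by the authors, written by Cell Ranger 6.0.1 per the file headers. The submitters' processing notes list Seurat besides Cell Ranger, and mm10 as the build.

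UMIs were summed over plasma cells and over other kept cells of each library. Ratios had 0.5 counts added and carry 95% exact conditional binomial intervals. Shares carry exact Clopper-Pearson intervals. No gene test was run, since each genotype has 1 library. The ratios and intervals were tested on simulated data that held counting error only. Variation between cells was not simulated, so the simulation cannot tell how the intervals perform where few cells hold most UMIs. Genes with at least 30 UMIs were counted between libraries, and list genes needed at least 10. Immunoglobulin RNA is a large and variable share of a plasma cell, so levels were scaled to the UMIs outside it. Alternatives changed the Jchain minimum, the cell filter, doublet scores, the isotype and UMI minimums, the scaling (edgeR 4.0.16 TMM, DESeq2 1.42.0 size factors, all UMIs) and the cells included. Python 3.11.15 and scanpy 1.11.5 were used, with GENCODE M21 for coordinates (32158 of 32285 gene IDs matched).

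The cells, gene lists and rules were chosen with earlier results of these data known. Genes named were the markers, constant genes, Zfp683, Prdm1 and Ncr1; of each list up to 4 by level and up to 4 by the library ratio; the 10 genes with the largest library ratio each way at 50 CPM or more; the 15 highest above other cells at 100 CPM or more; and the 5 most used V genes. Other genes named in the text, among them Creld2, Hspa5, Irf4, Cxcr4, Cxcr6, Sdc1, Ptprc and Ern1, are members of the lists chosen after their values were seen. Some genes that the rule names are not reported here.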

Additional observations from a re-analysis of the deposited data

Results flagged for a closer look

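In 11 named genes past 2-fold between the libraries in plasma cells, the other kept cells differed in the opposite direction, with counting intervals on opposite sides of 0. The difference between the contrasts was not tested. On the log2 scale, KO_LP over WT_LP, T cell and killer cell genes were lower in plasma cells and slightly higher in other cells. The values were -1.44 and 0.34 for Cd3d, -1.31 and 0.30 for Cd3e, -1.50 and 0.07 for Trbc1, and -1.16 and 0.18 for Gzma. The chemokine genes of lymphocytes did the same, with -1.06 and 0.05 for Ccl3, -1.03 and 0.04 for Ccl4, and -1.07 and 0.09 for Xcl1. Without the top plasma cell of each library, however, Xcl1 was at 0.17, the same direction as in the other cells. Atf3 (-2.43 and 0.23) and Hilpda (-1.82 and 0.28) were also lower in plasma cells and higher in other cells. Il17a (at least 5.37, and -3.76) and Cxcl3 (at least 4.003, and -1.38) were higher in KO_LP plasma cells and lower in the other cells. Both had no UMI in WT_LP plasma cells, so the first value is a lower bound against a floor of 3 counts, and each comes from 1 KO_LP cell. Outside the kept cells, 7 WT_LP barcodes met the Jchain and Mzb1 minimums but failed the cell filter, more than the floor of 3 counts.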

How the results depend on the processing

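With 1 library per genotype the genotype cannot be told apart from the animals or the capture, and depth limits genes under about 30 UMIs. The counts of genes between libraries depend on the UMI minimum: at 100 UMIs 18 were higher and 13 lower of 2449 tested, and at 10 UMIs 470 and 362 of 8761. Per all UMIs, immunoglobulin included, 428 genes were higher and 7377 lower in plasma cells than in other cells, and 2 secretory lists instead of 5 had a median past 2-fold in both libraries. On that scale the medians over other cells turned to -0.062 and -0.29 for plasma cell transcription factors, to -0.27 in KO_LP for survival receptors and to -0.0073 in KO_LP for cell cycle genes. Without the top 5% of Scrublet scores the lambda share of KO_LP was 0%.

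Of the alternatives chosen after seeing the data, leaving out cycling plasma cells gave 77 genes higher in KO_LP. These cells were picked by 4 genes of the cell cycle list, so the turn of that list follows from the choice: its median was -1.71 over other KO_LP cells and -0.012 between libraries, and the log2 ratios were -0.89 for Birc5, -0.31 for Hist1h1b, -0.46 for Hist1h2ae and -1.22 for Pclaf. Leaving out plasma cells with at least 3 lymphoid marker UMIs, other than Tmem176a and Tmem176b, gave a median of 0.11 for cytokines. Without the top cell of each library Xcl1 was at 0.17. The planned form of the lymphoid marker alternative, with Tmem176a and Tmem176b counted, left no WT_LP cell and gave no value. Leaving out the 14 cells of the Ighv1-53 pair left 158 genes higher and 95 lower. The IgA share was 100% under each alternative that gave a value, all of which kept a Jchain minimum of at least 20 UMIs. IgA and other isotypes could not be compared, as every plasma cell was an IgA cell. No paired analysis was possible because each genotype has 1 library.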

Other observations

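Metabolic and housekeeping genes of the plasma cells were not described above. Of 14 genes of oxidative phosphorylation 4 were at least 2-fold higher than in other cells in both libraries, beside 11.1% of all genes. The list medians were 0.58 and 0.70 on the log2 scale. Ndufa4, a respiratory chain subunit, stood at 1333 and 1274 CPM, against 411 and 382 CPM. Of 17 genes of glycolysis and amino acid supply 5 were at least 2-fold higher and 4 (Slc2a1, Hk2, Ldha and Eno1, all of glycolysis) at least 2-fold lower, beside 11.1% and 17.3% of all genes. Hk2, a hexokinase, stood at 44.9 and 37.2 CPM, against 232 and 199 CPM. Phgdh, the first enzyme of serine synthesis, stood at 299 and 221 CPM, against 34.4 and 34.5 CPM, and Asns, which makes asparagine, at 67.4 and 42.9 CPM, against 1.31 and 0.907 CPM. Among survival genes Mcl1, the BCL2 relative on which plasma cells depend, stood at 676 and 669.7 CPM, against 244 and 252 CPM, whereas Bcl2 stood at 78.1 and 57.2 CPM, against 234 and 239.6 CPM.

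Of 12 interferon response genes 9 were lower than in other cells in both libraries, 6 by at least 2-fold, beside 17.3% of all genes. However, 5 of those 6 gave at most 4 UMIs in either library, so that their ratios depend on the counts added. The 3 higher genes all passed 2-fold, beside 11.1% of all genes. Between the libraries, 2 of 6 measured genes were higher in KO_LP and 4 lower (median -0.06). At least 2-fold higher was 1, Isg15 (1.32), beside 5.36% of all genes with at least 10 UMIs, and none was at least 2-fold lower. Ifi27l2a stood at 548 and 835 CPM, against 35.1 and 31.2 CPM in the other cells. It was 0.61 higher in KO_LP plasma cells on the log2 scale (0.45 to 0.77), with UMIs in 60 of 96 and 77 of 109 cells. In the other kept cells its ratio was -0.17. Cst3, which leads the myeloid list, stood at 1033 and 871 CPM in 94 and 106 plasma cells, against 265 and 198 CPM in the other cells. Epcam, which leads the epithelial list, gave 117 UMIs in 59 WT_LP cells and 84 in 44 KO_LP cells, while keratins 8, 19 and 20 were at 0 in both libraries.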
